A study of Mus musculus with 5 samples.

Results

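Pdcd1, Lag3, Tigit, Havcr2, Tox and Entpd1 were followed in single T cells from mouse brain parenchyma, chosen by name as genes of T cell inhibition and exhaustion. Of 1900 wells with 1 sorted cell, 1482 were kept because they held at least 400 unique molecular identifiers (UMIs, each counting 1 captured RNA molecule), spike-ins not counted, with mitochondrial genes giving no more than 30% of them. All 6 genes were detected, among 15952 genes in all that had a UMI in these cells. At least 1 UMI of any of them was present in 326 kept cells (22.0%).

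T cells that meet their antigen for a long time carry receptors that damp the signal of the T cell receptor, and tumour and chronic infection studies call cells with several of them exhausted. The same receptors also appear after ordinary activation and on memory cells that stay in tissues, the brain included, so their transcripts alone do not define a state. Pdcd1 encodes PD-1, which recruits phosphatases to the activated T cell receptor. Lag3 encodes a receptor that binds MHC class II, Tigit a receptor that competes with the activating receptor CD226 for nectin-type ligands, and Havcr2 the receptor TIM-3. Tox encodes a nuclear protein of the HMG-box family that is needed to maintain exhausted T cells, and Entpd1 encodes CD39, a surface enzyme that removes phosphates from extracellular ATP on the way to adenosine.

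All 5 mice were of the strain Grl1loxP/loxP, in which the glucocorticoid receptor gene is flanked by loxP sites, and all were exposed to foot shock. TAT-CRE, a Cre recombinase that enters cells, was injected into the ventricles of 3 mice (numbered 207, 208 and 215 in the labels and aged 18, 18 and 19 weeks), with the aim of lowering the receptor in the choroid plexus. The 2 controls (216 and 218, aged 19 and 16 weeks) received PBS by the same route. On day 14 after the stress, CD45+CD11b-TCRβ+ cells were sorted from brain parenchyma without the choroid plexus; the recombinase was not restricted to a cell type by a promoter, and the labels do not say whether a library pooled animals.

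The kept cells numbered 311, 303 and 298 in TAT-CRE mice 207, 208 and 215 and 296 and 274 in PBS mice 216 and 218, with median depths of 1953, 993, 1600.5, 1410 and 2660 UMIs. TAT-CRE 208 stood apart: ribosomal RNA genes took 28.3% of its UMIs and 43.9% to 48.0% of those in the other 4 mice. Plates and amplification batches were not shared between mice within the 1 sequencing batch, so plate and mouse cannot be told apart. All 384 cell barcodes were used on all 5 plates, and pairs of wells with the same barcode on 2 plates that both held one of the 6 genes numbered 128, against 114 from the product of the plates' shares. In 20 empty wells, which held 1095 UMIs in all, no UMI of the 6 genes was found; Cxcr6 had UMIs in 2 of them and Cd8b1 in 2.

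The 6 genes lie on different chromosomes (build mm10, GENCODE M21 gene models). Pdcd1 spans chromosome 1, 94038305 to 94052553; Tigit spans chromosome 16, 43648867 to 43664146; Lag3 spans chromosome 6, 124904361 to 124911705; these 3 are on the minus strand. Havcr2 spans chromosome 11, 46454935 to 46481255, on the plus strand. Tox spans chromosome 4, 6686353 to 6991557, on the minus strand, and the overlapping Gm11802 had 0 UMIs. Entpd1 spans chromosome 19, 40612366 to 40741602, on the plus strand, and its 3 overlapping genes had 3 UMIs in all, so little could be shared with them.

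The bases upstream of Pdcd1 and Tigit are shown because this pair was found together in more cells than any other pair of the 6 genes. They are the 250 bases before the RefSeq start (GRCm38.p6), chr1:94052554-94052803 and chr16:43664185-43664434, both read on the minus strand, and capitals mark each GGAAA or its reverse complement TTTCC, the core that NFAT factors of T cell receptor signalling bind.
Pdcd1: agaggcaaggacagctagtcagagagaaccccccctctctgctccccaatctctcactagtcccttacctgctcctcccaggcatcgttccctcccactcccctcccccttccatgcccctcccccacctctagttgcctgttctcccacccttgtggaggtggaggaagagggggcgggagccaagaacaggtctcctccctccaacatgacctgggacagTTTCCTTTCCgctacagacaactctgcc
Tigit: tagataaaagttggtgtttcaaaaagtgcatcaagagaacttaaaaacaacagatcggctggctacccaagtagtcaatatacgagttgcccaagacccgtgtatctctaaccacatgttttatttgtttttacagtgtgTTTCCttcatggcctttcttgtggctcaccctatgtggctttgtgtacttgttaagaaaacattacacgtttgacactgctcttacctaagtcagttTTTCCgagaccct
Each of these windows held 2 matches, as TTTCC. A match on either strand was present in 55.6% of 32851 RefSeq promoter windows, so the motif is common and its presence sets neither gene apart.

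Pdcd1 was present in 35, 4 and 18 cells of TAT-CRE mice 207, 208 and 215 and in 24 and 10 cells of PBS mice 216 and 218. Summed over kept cells this gave counts per 1000000 UMIs (CPM) of 143, 22.1 and 81.6 for the TAT-CRE mice; the PBS mice gave 99.1 and 22.6 CPM. The lowest TAT-CRE mouse lay at the level of the lowest PBS mouse and the groups overlapped. Tigit, the receptor of nectin-type ligands, reached 194, 46.9 and 76.5 CPM in TAT-CRE mice 207, 208 and 215 and 117 and 51.2 CPM in PBS mice 216 and 218, with UMIs in 54, 9, 20, 26 and 14 cells. TAT-CRE 207 was the highest and TAT-CRE 208 the lowest of the 5 mice for both genes.

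Lag3 was scarce, with 10, 8 and 13 UMIs under TAT-CRE and 11 and 4 under PBS, or 14.4, 22.1, 22.1, 19.8 and 4.77 CPM in the order 207, 208, 215, 216 and 218. It was the gene for which TAT-CRE 207 was the lowest of its group. Havcr2 was carried by few cells: 12, 1 and 3 in TAT-CRE mice 207, 208 and 215 and 2 and 5 in PBS mice 216 and 218, with 43.3, 2.76, 22.1, 7.21 and 16.7 CPM. In TAT-CRE 215 a single cell held 69.2% of the 13 Havcr2 UMIs, and in PBS 216 a single cell held 75.0% of 4. Most of the Havcr2 level in these mice came from 1 cell each.

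Tox was found at 111, 63.5 and 85.0 CPM in TAT-CRE mice 207, 208 and 215 and at 103 and 46.5 CPM in PBS mice 216 and 218. Its highest mouse had 2.39 times the level of its lowest, the narrowest range of the 6 genes, against 15.7 times for Havcr2. Entpd1 gave 66.4, 41.4 and 35.7 CPM under TAT-CRE and 43.2 and 26.2 CPM under PBS, with UMIs in 17, 7, 5, 4 and 9 cells. Both genes had overlapping groups. In each gene a cell with the transcript usually held few copies: between 33.3% of the positive cells (Entpd1) and 52.2% (Havcr2) had exactly 1 UMI, and no cell had more than 10 of any of the 6.

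**Figure D1:**
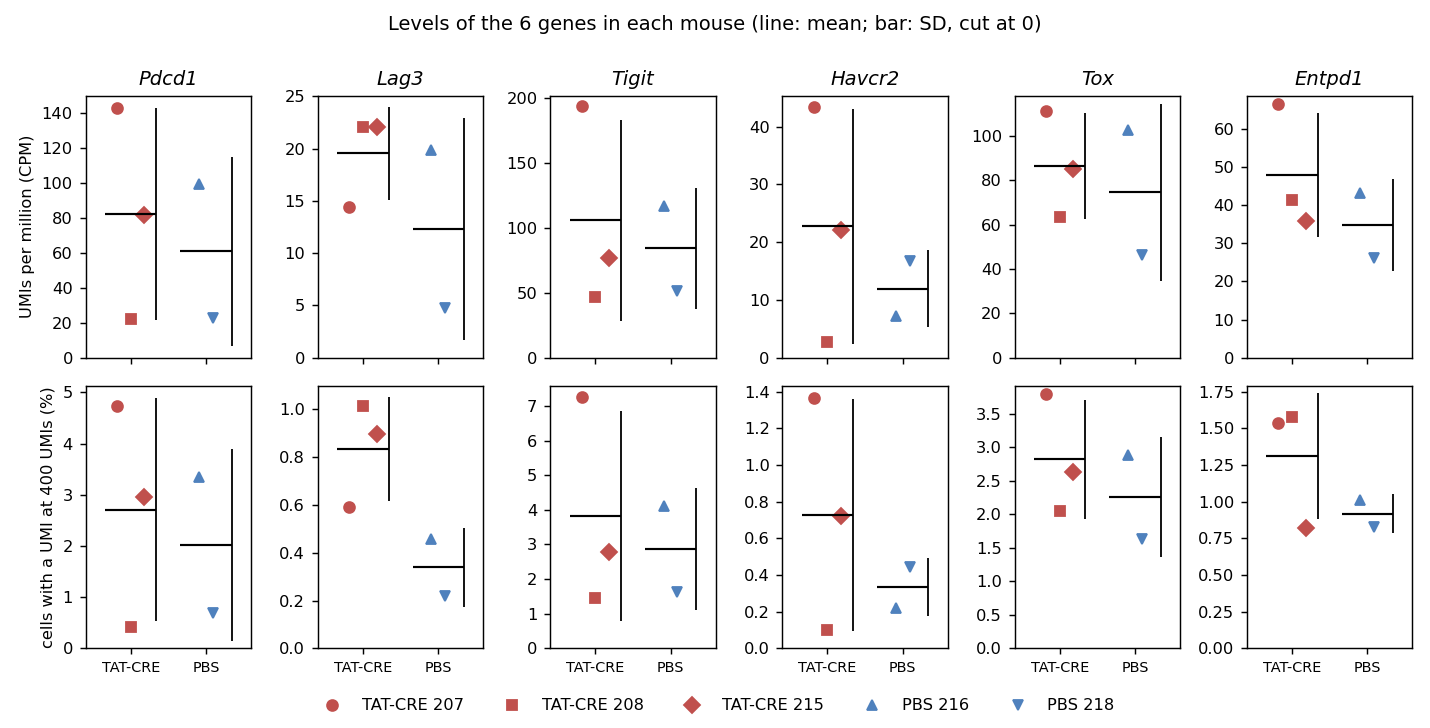
Levels of the 6 genes in each of the 5 mice, as CPM over all kept cells (upper row) and as the percentage of cells expected to show a UMI after each cell is thinned to 400 UMIs (lower row); points are mice, lines are group means and bars are SD. TAT-CRE and PBS mice overlap in every upper panel, and in the lower row the 3 TAT-CRE mice lie above both PBS mice for Lag3.

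None of the 6 genes differed between TAT-CRE and PBS mice beyond the spread between mice. Pdcd1 averaged 82.2 ± 60.5 CPM (SD, n = 3) after TAT-CRE against 60.9 ± 54.1 CPM (SD, n = 2) after PBS, a log2 difference of 0.49 ± 0.72 (SE). For Tigit the means were 106 ± 77.5 and 84.2 ± 46.6 CPM, and for Tox 86.6 ± 23.9 and 74.6 ± 39.8 CPM, log2 differences of 0.35 ± 0.58 and 0.20 ± 0.46. Entpd1 averaged 47.8 ± 16.4 against 34.7 ± 12 CPM, Lag3 19.5 ± 4.41 against 12.3 ± 10.6 CPM and Havcr2 22.7 ± 20.3 against 11.9 ± 6.70 CPM. The log2 differences of these 3 genes were 0.42 ± 0.55, 0.60 ± 0.96 and 0.97 ± 1.00.

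By edgeR's quasi-likelihood test, 0 of the 6 genes passed an adjusted p of 0.05 (adjusted p = 0.999 for each), against 0.00% of 6341 genes tested. At an unadjusted p under 0.05 the test had 239 genes, none of the 6 among them, and DESeq2 called 1 gene, again none of the 6. Without TAT-CRE 207, the mouse with the highest levels of 5 of the 6 genes, the log2 difference turned to -0.19 for Pdcd1, -0.49 for Tigit and -0.08 for Tox; without PBS 218 it was -0.25, -0.16 and -0.30 for the same genes and -0.14 for Lag3. Leaving out TAT-CRE 208 gave 0.97 for Pdcd1 and 0.75 for Tigit. Entpd1 ran from 0.02 (without TAT-CRE 207) and 0.07 (without PBS 218) to 0.86 (without PBS 216). In sums of this kind, fewer cells with a transcript and less transcript per cell cannot be told apart.

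At a matched depth of 400 UMIs per cell, Lag3 was expected in 0.590%, 1.01% and 0.896% of cells in TAT-CRE mice 207, 208 and 215 and in 0.456% and 0.221% in PBS mice 216 and 218. All 3 TAT-CRE mice lay above both PBS mice, with means of 0.833% ± 0.218 (SD, n = 3) and 0.338% ± 0.166 (SD, n = 2). The 2-sided exact permutation test gave p = 0.2, and the smallest p that 3 against 2 mice can give is 0.1. Behind it are 5, 4 and 6 Lag3 cells under TAT-CRE and 5 and 3 under PBS, and unthinned shares overlapped (1.65% ± 0.348 against 1.39% ± 0.420). At this depth, cells with any of the 6 genes made up 17.2%, 6.43% and 9.77% under TAT-CRE and 11.1% and 5.32% under PBS, which overlapped.

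Inside the CD8 lineage, taken as cells with a Cd8a or Cd8b1 UMI and no Cd4 UMI, 5 of the 6 genes passed the filter on low counts and 0 were called (0.00% of 4013 genes tested by edgeR; 123 at an unadjusted p under 0.05, none of the 5 among them; 0 by DESeq2). Tox averaged 120 ± 42.3 CPM in TAT-CRE and 69.6 ± 35.0 CPM in PBS mice, a log2 difference of 0.83 ± 0.58 that ran from 0.34 (without PBS 218) to 1.49 (without PBS 216). Pdcd1 averaged 60.7 ± 55.1 and 84.0 ± 62.4 CPM there, and Tigit 100.2 ± 109 and 136 ± 65.3 CPM. Their log2 differences, -0.28 ± 0.91 and -0.29 ± 0.75, had the opposite sign to those over all kept cells.

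Genes around the 6 in the same pathways gave no call between TAT-CRE and PBS mice either. Of 12 other inhibitory receptors tested, 7 were higher and 5 lower, with a median log2 difference of 0.10, against a median of 0.00 over all genes tested. Cd160, a receptor of cytotoxic lymphocytes, had 13.2 ± 4.24 CPM in TAT-CRE and 68.5 ± 2.50 CPM in PBS mice (log2 difference -2.36 ± 0.58, edgeR adjusted p = 0.999). Of 5 ligands, 15 regulators of exhaustion and activation, and 12 signalling and adenosine partners tested, 4, 9 and 7 were higher, and none passed. Nt5e, which encodes CD73, the enzyme that acts after CD39, had 66.0 ± 26.5 against 24.8 ± 7.05 CPM (log2 difference 1.25 ± 0.50, edgeR adjusted p = 0.999).

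The 6 genes were seldom seen together in 1 cell. Of the 326 cells with any of them, 260 had 1 gene, 51 had 2 and 15 had 3; none had 4 or more. Cells with at least 2 of the genes numbered 32, 2 and 14 in TAT-CRE mice 207, 208 and 215 and 13 and 5 in PBS mice 216 and 218. They made up 10.3% of all kept cells in TAT-CRE 207, 0.660% in TAT-CRE 208 and between 1.82% and 4.70% in the other mice.

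Pdcd1 and Tigit shared 22 cells, where the product of their shares within each mouse gives 10.02, and they exceeded that product in 4 of 5 mice. Tigit and Tox shared 18 cells (product 10.9), and Pdcd1 and Tox shared 13 (product 7.85). Tigit and Havcr2 shared 9 cells against a product of 2.75, but 8 of these came from TAT-CRE 207. Of 15 pairs, 11 lay above the product, and 9 did so at 400 UMIs per cell. There Pdcd1 with Tigit was still 2.49 times the product, and Pdcd1 with Tox was 1.05 times the product, or close to it. UMIs of several genes in 1 cell become more likely with its depth: cells with Pdcd1, Tigit or Tox had median depths of 2239, 1973 and 2285 UMIs, against 1609 to 1614 in cells without the respective gene.

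**Figure D2:**
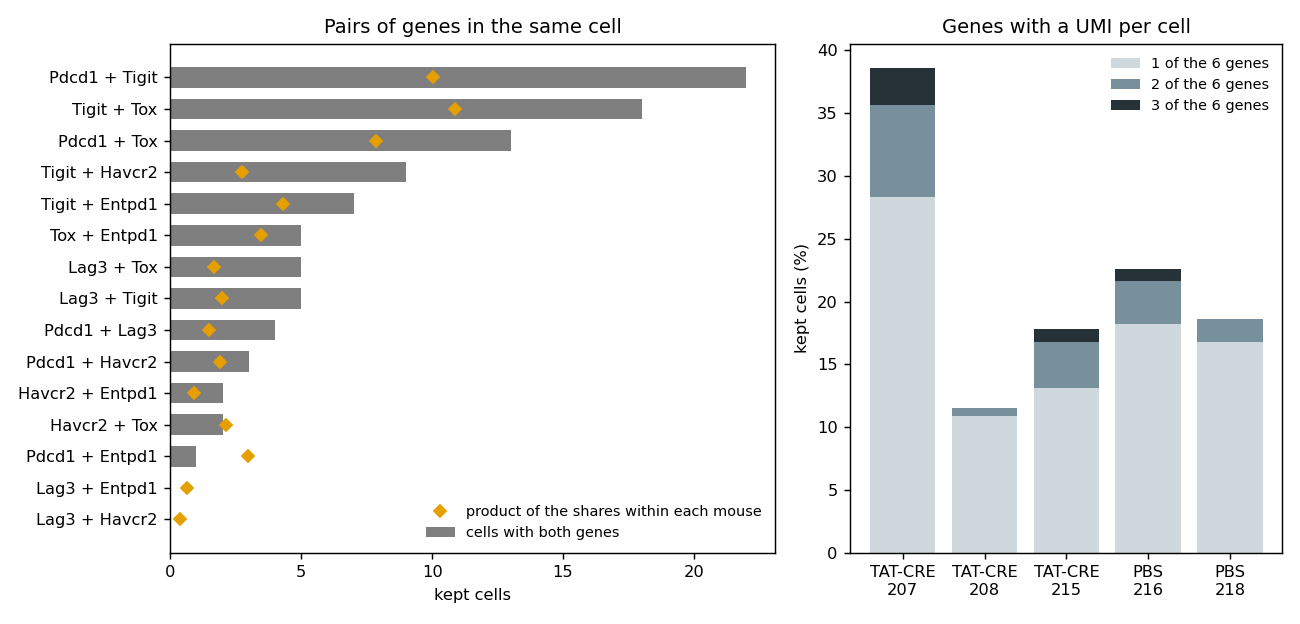
Left, number of kept cells with both genes of each pair (bars) beside the number given by the product of the shares of each gene within each mouse (diamonds). Right, percentage of kept cells in each mouse with 1, 2 or 3 of the 6 genes; Pdcd1 with Tigit is the most frequent pair (22 cells), and TAT-CRE 207 has the highest percentage of cells with 2 or 3 genes.

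Every one of the 15 cells with 3 of the genes held Tigit. Pdcd1 was in 10 of them, Tox in 10, Havcr2 in 5, Entpd1 in 3 and Lag3 in 2. The combination of Pdcd1, Tigit and Tox made up 7 of the 15 cells, 2 from TAT-CRE 207, 3 from TAT-CRE 215 and 2 from PBS 216, each with 6 to 11 UMIs of the 3 genes. The 15 cells came from TAT-CRE 207 (9), TAT-CRE 215 (3) and PBS 216 (3). Of them, 13 had a Cd8a or Cd8b1 UMI and 0 had a Cd4 UMI, 10 had Cxcr6 and 6 had Gzmk.

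For Tigit, another of the genes was more frequent in the cells that held it than in those that did not in all 5 mice. At 400 UMIs per cell, 18.3%, 10.4% and 28.3% of Tigit cells had another of the genes in TAT-CRE mice 207, 208 and 215, against 10.8%, 5.04% and 7.19% of cells without Tigit, and 13.5% and 6.63% against 7.26% and 3.75% in PBS mice 216 and 218. The mean difference was 8.62 percentage points ± 7.17 (SD, n = 5). It was 11.8 ± 13.0 points for Lag3 (higher in 4 of 5 mice), 4.68 ± 9.01 for Pdcd1 (3 of 5), 2.52 ± 3.55 for Tox (4 of 5), 1.01 ± 4.19 for Entpd1 (3 of 5) and 2.61 ± 19.8 for Havcr2 (1 of 5). The SD exceeded the mean for these 5 genes. Without TAT-CRE 215 the mean was 1.75 points for Pdcd1 and 5.50 for Tigit, and without PBS 218 it was 7.06 for Lag3. In Havcr2 the mean rested on TAT-CRE 207, where 53.8% of Havcr2 cells had another of the genes against 16.1% of the rest; without that mouse the difference was -6.15 points.

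Cxcr6, a chemokine receptor of tissue-resident T cells, had UMIs in 433 kept cells, which were compared with the other 1049 within each mouse. Entpd1 averaged 77.4 ± 21.7 CPM in cells with Cxcr6 and 25.6 ± 11.1 CPM in cells without (SD, n = 5 mice). Its level was 104, 86.7 and 83.5 CPM with Cxcr6 and 37.9, 28.4 and 18.5 CPM without in TAT-CRE mice 207, 208 and 215, and 63.8 and 48.4 against 32.7 and 10.3 CPM in PBS mice 216 and 218. The level with Cxcr6 in every mouse was above the level without in any mouse. Pdcd1 averaged 115 ± 57.6 and 56.0 ± 49.7 CPM and was also higher with Cxcr6 in 5 of 5 mice, at 162, 74.3, 161, 143 and 34.1 CPM against 129, 7.10, 53.2, 76.3 and 14.4 CPM in the order 207, 208, 215, 216 and 218.

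Neither difference passed the test over all genes. The log2 difference was 1.59 ± 0.49 for Entpd1 (unadjusted p = 0.00581 and adjusted p = 0.584 by edgeR) and 1.16 ± 0.41 for Pdcd1 (unadjusted p = 0.0142 and adjusted p = 0.714 by edgeR). Of the 4 genes that passed the filter on low counts, 0 were called, against 0.00% of 3467 genes tested; 206 genes had an unadjusted p under 0.05, Entpd1 and Pdcd1 among them, and DESeq2 called 4 genes, none of the 6. Tigit (0.20 ± 0.39) and Tox (0.14 ± 0.48) had log2 differences smaller than their standard errors, and both were higher with Cxcr6 in 3 of 5 mice. Lag3, at 22.9 ± 13.5 against 14.2 ± 5.56 CPM, and Havcr2, at 23.0 ± 35.2 against 14.1 ± 7.84 CPM, had too few UMIs for the test.

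Cells with a Cxcr6 UMI were also deeper, with a median of 2007 UMIs against 1498. At 400 UMIs per cell, Pdcd1 was expected in 3.12% ± 2.04 of cells with Cxcr6 and in 2.31% ± 1.80 of cells without (SD, n = 5), higher in 5 of 5 mice. The exact sign-flip permutation test gave p = 0.0625, the smallest p that 5 mice can give, and 12 such comparisons of a gene with Cxcr6 or Gzmk were made. Entpd1 was expected in 1.95% ± 1.35 against 1.01% ± 0.241, higher in 4 of 5 mice (exact sign-flip permutation p = 0.125). In the unthinned counts, 57.1% of the 42 cells with Entpd1 and 44.0% of the 91 cells with Pdcd1 carried Cxcr6, against 28.4% and 28.3% of cells without the respective gene.

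Gzmk, which encodes granzyme K of memory-type cytotoxic T cells, had UMIs in 185 kept cells (median depth 2070 UMIs, against 1606 in the rest). Entpd1 averaged 150 ± 108 CPM with Gzmk and 28.5 ± 15.1 CPM without (SD, n = 5 mice). It was higher with Gzmk in 5 of 5 mice, at 110, 326 and 132 against 54.8, 23.5 and 23.1 CPM in TAT-CRE mice 207, 208 and 215 and at 146 and 34.5 against 16.0 and 25.3 CPM in PBS mice 216 and 218. TAT-CRE 208 gave the widest gap, from 3 Entpd1 cells among its Gzmk cells. The log2 difference was 2.06 ± 0.69 (edgeR adjusted p = 0.800), and 1.71 without TAT-CRE 208. At 400 UMIs per cell Entpd1 was expected in 4.06% ± 4.87 of cells with Gzmk and 1.01% ± 0.347 of cells without, higher in 4 of 5 mice (exact sign-flip permutation p = 0.188). The mean difference of 3.05 percentage points fell to 0.989 without TAT-CRE 208, where it was 11.3 points, and it was -0.52 points in TAT-CRE 207.

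Lag3, with 10 of its 23 cells in the Gzmk class, averaged 58.0 ± 29.7 CPM with Gzmk and 10.8 ± 6.64 CPM without. It was higher with Gzmk in 5 of 5 mice: 20.7, 93.2, 73.1, 68.5 and 34.5 CPM against 12.8, 17.6, 15.4, 6.85 and 1.33 CPM in the order 207, 208, 215, 216 and 218. Each of these levels comes from 1 to 3 Lag3 cells with Gzmk per mouse, and the gene did not pass the filter on low counts. At 400 UMIs per cell Lag3 was expected in 2.2% ± 0.914 of cells with Gzmk and 0.558% ± 0.312 of cells without, higher in 5 of 5 mice (exact sign-flip permutation p = 0.0625). Havcr2 averaged 64.6 ± 62.3 against 9.52 ± 7.70 CPM and was higher in 4 of 5 mice. These levels come from 8 Havcr2 cells with Gzmk: 5 in TAT-CRE 207, 0 in TAT-CRE 208 and 1 in each other mouse. At 400 UMIs per cell Havcr2 was expected in 2.13% ± 2.49 against 0.467% ± 0.411 of cells (exact sign-flip permutation p = 0.188).

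For Pdcd1, Tigit and Tox the mean levels with and without Gzmk lay within the spread between mice. Pdcd1 averaged 67.2 ± 69.1 against 73.2 ± 49.9 CPM, with the higher level in Gzmk cells in 2 of 5 mice, and its log2 difference was -0.35 ± 0.63. Tigit (0.31 ± 0.47) and Tox (0.60 ± 0.58) had log2 differences of about the size of their standard errors or less. Of the 4 genes tested 0 were called, while the share called was 0.0380% of 2631 genes (1 gene, the chemokine Ccl5; 125 had an unadjusted p under 0.05, Entpd1 among them, and DESeq2 called 2, none of the 6).

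**Figure D3:**
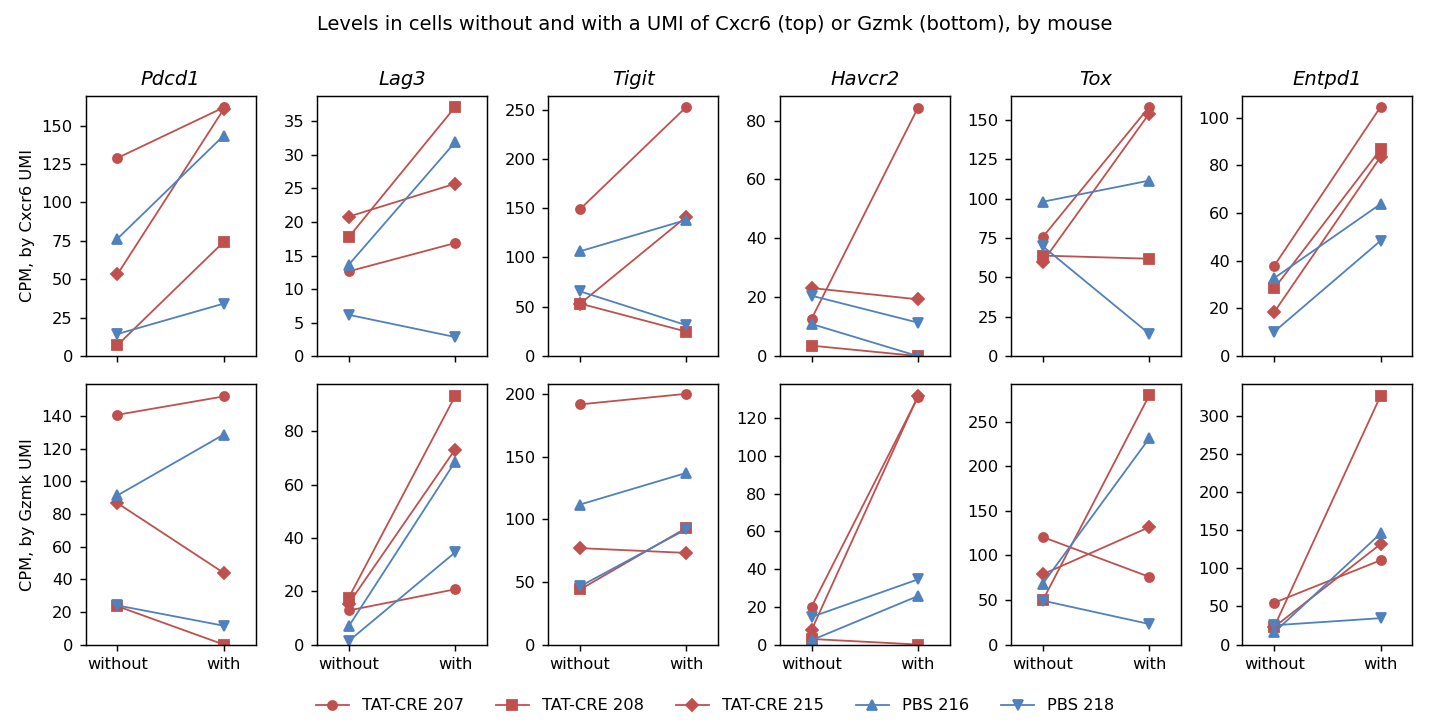
Level of each of the 6 genes, in CPM, in cells without and with a UMI of Cxcr6 (upper row) or Gzmk (lower row); each line joins the 2 classes of 1 mouse. Entpd1 and Pdcd1 lines rise with Cxcr6 in all 5 mice, and Lag3 and Entpd1 lines rise with Gzmk in all 5 mice.

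Over the pooled cells, those with both Cxcr6 and Gzmk had the highest share with one of the 6 genes. Any of the genes was present in 17.1% of 938 cells with neither (95% exact Clopper-Pearson interval 14.7% to 19.6%), 27.3% of 359 cells with Cxcr6 only (22.8% to 32.2%), 30.6% of 111 cells with Gzmk only (22.2% to 40.1%) and 45.9% of 74 cells with both (34.3% to 57.9%). These intervals cover counting error only. TAT-CRE 207 gave 27 of the 74 cells with both. Cells with both lay above cells with neither in each mouse: 55.6% against 31.0%, 33.3% (of 3 cells) against 7.14% and 27.3% (of 11 cells) against 13.7% in TAT-CRE mice 207, 208 and 215, and 47.4% and 42.9% against 18.8% and 18.8% in PBS mice 216 and 218. Cells with Gzmk only lay above cells with both in TAT-CRE 208 (43.8% of 16 cells) and TAT-CRE 215 (29.2% of 24 cells). In PBS 218, cells with Cxcr6 only (14.9% of 87 cells) and with Gzmk only (15.4% of 13 cells) lay below cells with neither. Median depth was 1480, 1923, 1803 and 2384.5 UMIs in the order given above. It was lowest in cells with neither and highest in cells with both, but lower with Gzmk only than with Cxcr6 only. At 400 UMIs per cell the shares were 7.74%, 12.6%, 15.3% and 20.1%. Here only the 6 genes were thinned and the classes were still set from all UMIs, so class membership still depends on depth.

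**Figure D4:**
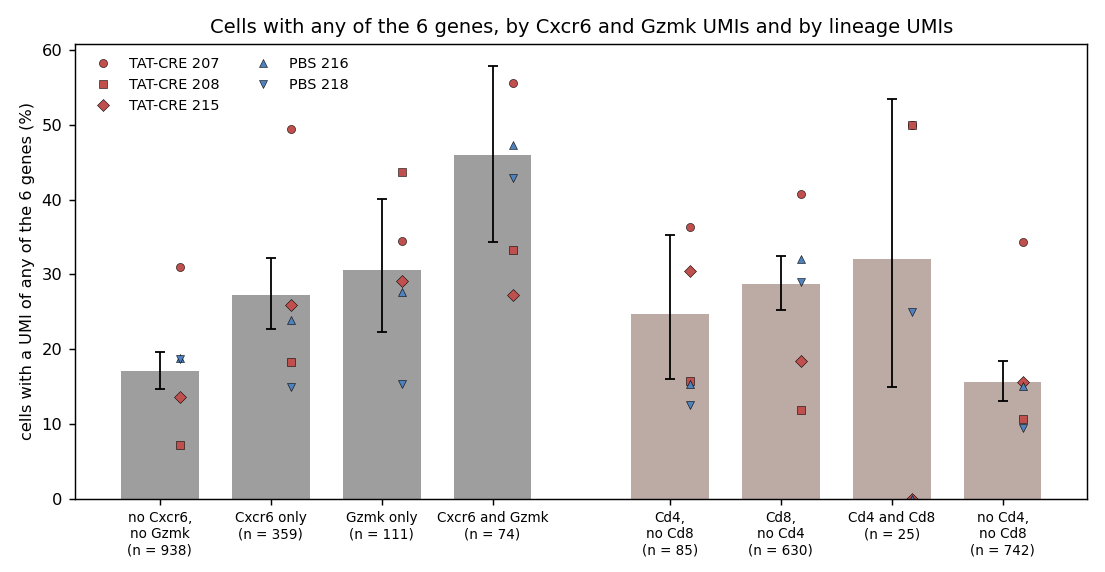
Percentage of kept cells with a UMI of any of the 6 genes, by Cxcr6 and Gzmk UMIs (left 4 bars) and by Cd4 and Cd8a or Cd8b1 UMIs (right 4 bars); error bars are 95% exact binomial intervals over the pooled cells and points are mice. The share is 17.1% in cells with neither Cxcr6 nor Gzmk and 45.9% in cells with both.

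Lineage was read from transcripts: 85 cells had a Cd4 UMI and no Cd8a or Cd8b1 UMI, 630 had the reverse, and 742 had none of the 3. Any of the 6 genes was present in 24.7% of the CD4 cells (95% exact interval 16.0% to 35.3%), 28.7% of the CD8 cells (25.2% to 32.4%) and 15.6% of cells with none of the 3 transcripts (13.1% to 18.4%), whose median depths were 1717, 1985.5 and 1315.5 UMIs. At 400 UMIs per cell, with the lineages still set from all UMIs, the share was 8.33%, 12.7% and 8.13%. The intervals of CD4 and CD8 cells overlapped. By mouse, the summed level of the 6 genes averaged 189 ± 135 CPM in CD4 and 377 ± 175 CPM in CD8 cells (SD, n = 5 mice). This level was lower in CD4 cells in 5 of 5 mice and was not tested. The unthinned share of cells was higher in CD4 cells in 2 of 5 mice (exact sign-flip permutation p = 0.375).

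Gene by gene, Tigit was found in 9 of 85 CD4 and 72 of 630 CD8 cells (10.6% and 11.4%), Pdcd1 in 5 and 47 (5.88% and 7.46%) and Entpd1 in 3 and 25 (3.53% and 3.97%). Havcr2 was found in 2 and 14 (2.35% and 2.22%) and Tox in 5 and 64 (5.88% and 10.2%). Tox averaged 26.8 ± 27.2 CPM in CD4 and 99.8 ± 44.3 CPM in CD8 cells (SD, n = 5 mice) and was lower in CD4 cells in 4 of 5 mice. Lag3 had UMIs in 0 of 85 CD4 cells, which allows a share of cells with a UMI of up to 3.53% (3 counts of 85, 95% exact upper bound 4.25%). It had UMIs in 16 of 630 CD8 cells (2.54%, 95% exact interval 1.46% to 4.09%), so a difference was not detectable in the pooled cells. By mouse, the unthinned share of Lag3 cells was lower in CD4 cells in 5 of 5 mice (exact sign-flip permutation p = 0.0625, the smallest p that 5 mice can give). With 8 to 23 CD4 cells per mouse, a share of 0 can also arise at the CD8 share, so this test cannot decide. None of the 6 passed the filter on low counts in the comparison of CD4 with CD8 cells, so none was tested there by edgeR. The share called was 0.275% of 728 genes. Of 18 cells with a UMI of Foxp3, the factor of regulatory T cells, 5 held one of the 6 genes.

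Within CD8 cells the share with any of the 6 genes was 37.9% of 219 cells with Cxcr6 (95% exact interval 31.4% to 44.7%) and 23.8% of 411 cells without (19.8% to 28.3%). Entpd1 was in 7.76% and 1.95% of these cells, Pdcd1 in 10.5% and 5.84%, and Lag3 in 2.28% and 2.68%. By mouse, the share with any of the genes was higher with Cxcr6 in TAT-CRE 207 (52.7% against 32%), 208 (16.7% against 10.9%) and 215 (28.6% against 14.4%) and in PBS 216 (38.6% against 28.9%), and lower in PBS 218 (27.8% against 29.9%).

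The other transcripts of the 326 cells with any of the 6 genes were set against those of the 1156 cells with none, within each mouse. The gene with the smallest p was Ccl5, a chemokine of effector and memory CD8 cells, at 3630 ± 1229 CPM against 2136 ± 474 CPM (SD, n = 5 mice), higher in 5 of 5 mice (log2 difference 0.62 ± 0.10, edgeR adjusted p = 0.0654). Nkg7, a protein of cytotoxic granules, had 767 ± 194 against 433 ± 43.8 CPM. Ptprc, S100a6, Fam46a, Gzmk, Ifi27l2a, Cd8b1 and Usp7 were also among those of smallest p on the higher side, each higher in 5 of 5 mice.

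Il7r, the receptor for the survival cytokine IL-7, had the smallest p on the lower side, at 204 ± 55.4 against 363 ± 89.5 CPM, lower in 5 of 5 mice (log2 difference -0.93 ± 0.21, edgeR adjusted p = 0.226). Lef1, a factor of naive T cells, had 46.4 ± 42.2 against 147 ± 47.3 CPM. Limd1, Pitpna, Lyst, U2surp and Trat1 and the pseudogenes Gm8730, Gm14303 and Gm6204, whose reads may be shared with near copies, made up the rest of the 10 of smallest p. By edgeR 0 of 3306 genes were called (0.00%); 209 had an unadjusted p under 0.05, and DESeq2 called 10 of the 358 genes to which it gave an adjusted p. When the 6 genes that define the classes were kept in the adjustment, Ccl5 alone was called among the other genes (edgeR adjusted p = 0.0131).

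By list, 7 of 7 effector genes tested were higher in cells with any of the 6 genes (median log2 difference 0.83), 4 of 6 residency genes (0.48) and 0 of 7 genes of naive and central memory cells (-0.93), against a median of -0.13 over all genes tested and 39.5% of them higher. By edgeR no gene of these lists was called; DESeq2 called Ccl5 and Nkg7 of the effector genes (adjusted p = 1e-07 and 0.0069), none of the residency genes, and Il7r of the naive and central memory genes (adjusted p = 0.0499). Cxcr6 had 759 ± 149 against 551 ± 106 CPM (log2 difference 0.39 ± 0.14), Gzmb 212 ± 108 against 121 ± 103 CPM and Tcf7, a factor of naive and stem-like memory cells, 298 ± 114 against 419 ± 75.2 CPM. Of the other inhibitory receptors 4 of 5 were higher (median 0.24), of the regulators of exhaustion and activation 6 of 12 (median -0.03), and of the signalling and adenosine partners 3 of 10 (median -0.37). The depth of the cells with any of the genes was higher, with a median of 2091.5 against 1539.5 UMIs.

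With each cell thinned to 400 UMIs, 0 genes were called by edgeR and 11 of the 20 genes of smallest p kept enough UMIs to be fitted. Of these 11, 9 had a log2 difference closer to 0 than at full depth, 7 of them by more than 1.5 times, and 1 had the other sign. Ptprc went from 0.52 to 0.04, Gzmk from 0.97 to 0.28, S100a6 from 0.58 to 0.26, Cd8b1 from 0.51 to 0.20 and Il7r from -0.93 to -0.22. Ccl5 (0.57, edgeR adjusted p = 0.335) and Nkg7 (0.74) stayed near their full-depth values of 0.62 and 0.70, and Ifi27l2a went from 0.77 to 1.06.

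Markers of the sorted cells were present with the 6 genes: 316 of the 326 cells (96.9%) had a UMI of the 10 T cell markers, against 94.6% of the other cells. Of the 11 microglia markers 4 had UMIs, with P2ry12, Tmem119, Sall1, Siglech, C1qb, Csf1r and Trem2 at 0 and a summed level of 5.10 to 74.5 CPM in TAT-CRE and 33.4 to 84.7 CPM in PBS mice. Of the 9 monocyte and macrophage markers 3 had UMIs, with Lyz2, Cd14, Adgre1, Fcgr1, Mrc1 and Ms4a7 at 0 and a summed level of 119 to 145 CPM in TAT-CRE and 88.3 to 131 CPM in PBS mice. Neutrophil and astrocyte markers had no UMI. Other marker sets had UMIs, given here as the percentage of the 326 cells and of the other cells. They were 16.6% and 8.48% for gamma delta T cells, 9.82% and 7.27% for natural killer cells, and 9.20% and 5.10% for dendritic cells. B cell markers gave 7.06% and 8.91%, oligodendrocyte markers 8.28% and 8.39%, endothelial markers 16.6% and 14.4%, and choroid plexus markers 1.53% and 1.04%. These shares are not matched for depth. Havcr2 and Entpd1 are also microglial genes, and 1 of the 23 cells with Havcr2 and 0 of the 42 cells with Entpd1 held a microglia marker UMI. Such a UMI was in 3.37% of the 326 cells and 2.42% of the other cells, so these counts are too small to compare with that share.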

How the data were processed

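The authors deposited UMI counts for every gene in every well, without normalization, and a further table holds, per the file headers, how many cells each well received. Build mm10 and bcl2fastq 2.15.0.4 come from the submitters' processing notes; for the aligner, the annotation and strand use, no source used here gives a name or setting. Each library was taken as 1 mouse. The 6 genes, the gene lists and the rule for named genes (the 10 of smallest p higher and lower in cells with any of the 6 genes, without ribosomal and mitochondrial genes) were chosen with earlier results of these data known; 1 gene that the rule names is not reported here.

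Counts were summed per mouse, or per mouse and class of cells, and tested with edgeR 4.0.16 in R 4.3.3 (TMM, filterByExpr, quasi-likelihood test, Benjamini-Hochberg over all genes tested, threshold 0.05). Fits between classes held the mouse as a block, since both sums come from the same library. DESeq2 1.42.0 was an alternative. Genes that define a class left the table after the fit and before the adjustment; this was decided after seeing the data and after Ccl5 had passed with them kept in. For matched depth, the probability of at least 1 UMI among 400 drawn UMIs was computed per cell, and shares were compared over mice by exact permutation. Fits on thinned counts instead used a single random draw of 400 UMIs per cell, with classes set from the drawn UMIs. Fits were tested on simulated data. Doublets were not called, since wells were sorted with 1 cell. A share of 0 allows up to 3 counts of the total. Intervals cover counting error only.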

Additional observations from a re-analysis of the deposited data

Results flagged for a closer look

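The 5 mice were checked in 18 sets of values (6 genes by Cxcr6, by Gzmk and by co-detection, at 400 UMIs per cell), and chance marks about 1 set in 20. A mouse stood far from the other 4 in 4 sets. TAT-CRE 208 had a difference of 2.99 percentage points in the share of Lag3 cells with against without Cxcr6, from 2 Lag3 cells in each class. TAT-CRE 215 had 2.20 points for Pdcd1 by Gzmk, from 3 Pdcd1 cells with Gzmk. For Tigit, TAT-CRE 215 had 21.1 points in the share of cells with another of the 6 genes, against 2.87 to 7.53 in the other mice. For Havcr2, TAT-CRE 207 had 37.7 points, against -10.9 to -2.50 in the others.

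Wells left out of the comparisons held UMIs of the 6 genes. Empty wells held 0, but their 1095 UMIs in all were too few to show levels like the 334 CPM of kept cells. In 223 wells with 1 cell and under 400 UMIs there were 13 UMIs, in 7 wells. In 195 wells over the mitochondrial limit there were 61 UMIs, in 25 wells (12.8% of these wells, against 22.0% of kept cells); Tigit gave 30 of them and Lag3 0.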

How the results depend on the processing

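Between TAT-CRE and PBS mice (all cells and CD8 cells) and by Cxcr6 and Gzmk, the count of the 6 genes called was 0 under every alternative run, leave-one-out fits included; by lineage it was also 0, but none of the 6 was tested in the main fit. For cells with any of the 6 genes against none, where the main count of genes called was 0, it was 10 with DESeq2, 36 with no filter on low counts, 1 with RLE normalization, 1 with at least 800 UMIs per cell, 1 with the class-defining genes kept in the adjustment, and 0 to 1 when 1 mouse was left out (1 without PBS 218). The cause was not tested.

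Directions of the log2 difference between TAT-CRE and PBS turned with single mice. Without TAT-CRE 207 the log2 difference was -0.19 for Pdcd1, -0.49 for Tigit and -0.08 for Tox. Without PBS 218 it was -0.25, -0.16 and -0.30, and -0.14 for Lag3. Leave-one-out values reached 1.94 (Pdcd1), 1.94 (Lag3), 1.10 (Tigit) and 0.91 (Tox), each without PBS 216. In CD8 cells, Pdcd1 reached 0.82 and Tigit 0.34 without PBS 216, 0.20 and 0.14 without TAT-CRE 208, and Lag3 -0.57 without PBS 218; the other ends were -0.93 for Pdcd1 and -1.74 for Tigit (without TAT-CRE 207) and 1.76 for Lag3 (without PBS 216). Entpd1 ran from 0.02 (without TAT-CRE 207) to 0.86 (without PBS 216) over all cells and from 0.27 (without TAT-CRE 207) to 1.10 (without PBS 218) in CD8 cells, and Tox in CD8 cells from 0.34 (without PBS 218) to 1.49 (without PBS 216). The difference in shares at 400 UMIs per cell, 2.94 percentage points for any of the genes, ran from -0.102 (without TAT-CRE 207) to 5.83 (leave-one-out). Without TAT-CRE 207 it was -0.329 for Pdcd1 and -0.751 for Tigit; without PBS 218 it was -0.637 for Pdcd1, -0.290 for Tigit and -0.0660 for Tox; the highest, without PBS 216, were 2.01 for Pdcd1, 2.20 for Tigit and 1.197 for Tox. Co-detection of Havcr2 ran from -6.15 to 5.99 and that of Entpd1 from -0.285 to 2.20 points when 1 mouse was left out, the lowest without TAT-CRE 207 and PBS 216. That of Pdcd1 ran from 1.75 (without TAT-CRE 215) to 7.36 (without TAT-CRE 208), of Lag3 from 7.06 (without PBS 218) to 16.1 (without TAT-CRE 208), of Tigit from 5.50 (without TAT-CRE 215) to 10.05 (without PBS 218) and of Tox from 1.74 (without PBS 216) to 3.99 (without PBS 218).

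By Cxcr6, Tigit was -0.01 without TAT-CRE 207 and -0.10 without TAT-CRE 215, and Tox -0.14, -0.18 and, with no filter, -0.0051; the highest leave-one-out values, without PBS 218, were 0.51 and 0.63. By Gzmk, Pdcd1 was 0.063 with no replicate block, and Tigit -0.085 with no filter and -0.33 with classes from 2 or more UMIs; its share difference at 400 UMIs per cell was -0.0424 points, and that of Entpd1 was 0.989 without TAT-CRE 208 (both added after seeing the data). For cells with any of the genes, thinning to 400 UMIs gave 0.04 for Ptprc, 0.28 for Gzmk, 0.26 for S100a6, 0.20 for Cd8b1, -0.22 for Il7r and 0.047 for Gm6204 (log2 differences); Ccl5 was 0.57 there and 0.38 with no filter. Without the replicate block, which stands for the shared library, no other direction or call of the 6 genes changed. No paired analysis was possible because the TAT-CRE and PBS mice share no replicate numbers. Depth limits the scarce genes: Lag3 and Havcr2 rest on 23 cells each.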
